A study of Mus musculus with 4 samples.

Results

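In the list of CTCF binding sites that held between both pools of mouse cortex, 247 intervals carried 2 summits. A summit is the base at which a peak's signal is highest, and such a list gives 1 row per summit, so these intervals were found as rows whose chromosome, start and end were identical to those of another row. They made up 494 of 44672 rows (1.11%) and 247 of 44425 intervals (0.556%), and each held exactly 2 summits. The members were thus selected on summits called from these data, and their number, width, signal and summit distance are given as a description, with no test.

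CTCF is a zinc finger protein that binds insulators, boundaries of chromatin domains and the anchors of chromatin loops. Its binding motif is asymmetric, so that every site points along 1 strand, and loops that cohesin forms are mostly held between motifs that face each other. Several CTCF sites in a row are known from insulators such as the imprinting control region of H19 and Igf2.

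Chromatin immunoprecipitation with a CTCF antibody and sequencing (ChIP-seq) was done on left cerebral cortex of female B6CASTF1/J mice aged 2 months, by its name a first-generation hybrid strain. There were 4 libraries, as 2 technical replicates of pool I and 2 of pool J, the first and the second biological replicate, and each pool combined 4 biosamples. All libraries share strain, sex, age, tissue and antibody, so no condition is compared. The lists were made after the libraries of a pool had been merged, on the mm10 genome, and hold neither single animals nor cell types of the cortex nor the parental alleles apart. They give no read counts, so the depth is unknown, and no expression, so the tissue label could not be checked against marker genes. Below, left and right mean lower and higher genome coordinate, all coordinates are mm10 and 1-based, and signal is the authors' value per peak, in a unit that was not stated.

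The sequences of intervals with a motif at both summits are shown first, because the strands of the 2 motifs differ between them. The motif was learned from the strongest 1000 rows of odd-numbered autosomes, 7 of which were member rows, and the most frequent bases along its 20 positions were GTGGCCACCAGGGGGCGCTA. A match had its centre within 50 bp of the summit and a score that 1% of windows 1000 bp away from summits reached. Each line runs 5′ to 3′ on the plus strand from 5 bases before the left match to 5 bases after the right one, and capitals mark the 2 matches. The 2 strongest intervals are printed for each arrangement. The last line shows the interval with the most matches, from the start of its first to the end of its last match, with all 7 in capitals.

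Both motifs on the plus strand, Capn2 interval, chr1:182489875-182490083: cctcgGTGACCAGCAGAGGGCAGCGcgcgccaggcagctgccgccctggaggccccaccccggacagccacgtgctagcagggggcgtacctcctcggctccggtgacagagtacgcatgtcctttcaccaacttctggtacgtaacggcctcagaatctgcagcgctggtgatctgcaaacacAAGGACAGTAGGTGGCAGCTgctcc

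Both motifs on the minus strand, Irgm2 interval, chr11:58225800-58226010: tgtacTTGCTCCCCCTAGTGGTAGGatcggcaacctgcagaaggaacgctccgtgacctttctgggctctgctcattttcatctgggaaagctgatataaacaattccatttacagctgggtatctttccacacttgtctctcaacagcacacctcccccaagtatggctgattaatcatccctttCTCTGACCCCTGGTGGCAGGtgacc

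Motifs facing each other (convergent), Mrps31 interval, chr8:22433148-22433406: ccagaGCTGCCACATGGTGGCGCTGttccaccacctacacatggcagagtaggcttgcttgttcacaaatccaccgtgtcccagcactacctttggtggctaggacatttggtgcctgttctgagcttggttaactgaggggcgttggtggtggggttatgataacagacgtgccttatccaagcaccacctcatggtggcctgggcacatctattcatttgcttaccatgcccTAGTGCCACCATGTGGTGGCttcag

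Motifs facing each other (convergent), Bud13 interval, chr9:46735726-46735997: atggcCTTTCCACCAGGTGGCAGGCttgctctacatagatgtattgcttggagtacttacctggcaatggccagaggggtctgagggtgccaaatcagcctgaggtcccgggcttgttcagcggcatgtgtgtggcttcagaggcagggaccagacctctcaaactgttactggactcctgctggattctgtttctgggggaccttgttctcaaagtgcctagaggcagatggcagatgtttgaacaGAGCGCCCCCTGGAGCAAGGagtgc

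Motifs facing apart (divergent), Slc16a11 interval, chr11:70201778-70202044: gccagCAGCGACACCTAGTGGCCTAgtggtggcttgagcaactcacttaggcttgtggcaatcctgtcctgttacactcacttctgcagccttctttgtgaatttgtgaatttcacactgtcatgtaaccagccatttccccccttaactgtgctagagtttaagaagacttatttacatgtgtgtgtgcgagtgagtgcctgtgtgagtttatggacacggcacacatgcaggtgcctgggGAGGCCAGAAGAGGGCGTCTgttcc

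Motifs facing apart (divergent), Ptp4a3 interval, chr15:73716509-73716795: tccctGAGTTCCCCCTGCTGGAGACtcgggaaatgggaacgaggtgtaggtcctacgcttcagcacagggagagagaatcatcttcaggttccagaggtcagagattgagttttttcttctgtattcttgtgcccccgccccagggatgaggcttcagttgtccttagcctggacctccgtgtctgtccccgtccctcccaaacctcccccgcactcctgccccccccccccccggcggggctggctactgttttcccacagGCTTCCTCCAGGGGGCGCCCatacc

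7 motifs on the plus strand in a tandem repeat, Sec22c interval, chr9:121697654-121697943: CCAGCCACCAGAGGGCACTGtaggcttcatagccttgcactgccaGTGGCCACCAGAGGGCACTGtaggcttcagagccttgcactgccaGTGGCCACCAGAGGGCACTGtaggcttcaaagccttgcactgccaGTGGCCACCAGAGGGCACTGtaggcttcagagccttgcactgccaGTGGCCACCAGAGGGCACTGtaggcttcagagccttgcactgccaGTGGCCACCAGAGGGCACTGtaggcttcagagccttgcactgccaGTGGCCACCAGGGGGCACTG

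The 2 summits of a member lay at a nearly fixed distance. The distance had a median of 204 bp, quartiles of 201 and 212 bp and a range from 199 to 570 bp. No 2 summits of the conservative list lay closer than 199 bp, and 32 members lay exactly at that distance. With limits at the median, 220 and 300 bp, the members fell into 128 intervals at 199 to 204 bp, 80 at 205 to 219 bp, 16 at 220 to 299 bp and 23 at 300 to 570 bp. The plot of distances shows the same narrow mode for neighbouring summits of separate intervals, followed by few pairs up to about 400 bp. The widest distances were 570 bp near Ptf1a, a transcription factor gene of cerebellum and pancreas, 471 bp near Rpap3 and 460 bp in Nlrc5. Among the strongest of the 32 intervals at the narrowest distance were those in Palm2, which encodes a paralemmin, and near Mrpl14.

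**Figure D1:**
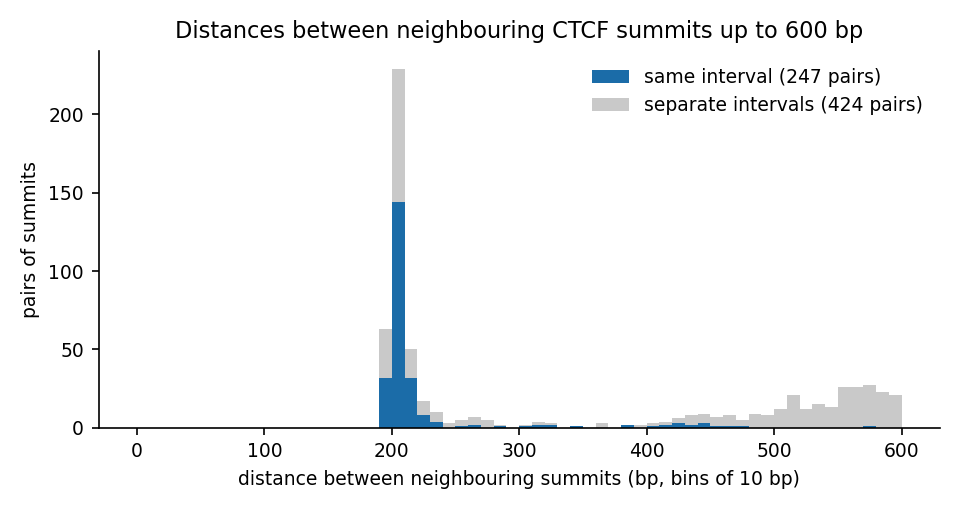
Number of pairs of neighbouring CTCF summits (y axis) by the distance between them in bp (x axis, bins of 10 bp), up to 600 bp. Blue marks pairs in the same interval and grey pairs in separate intervals; no pair lies below 199 bp, and the same-interval pairs have their median at 204 bp.

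Member intervals were wide, with a median of 520 bp (295 to 971 bp) against 307 bp for intervals with 1 summit. Their left edge lay at a median of 195 bp from the left summit, and their right edge at 119 bp from the right summit. In intervals with 1 summit these distances were alike, at 153 bp on the left and 152 bp on the right. The asymmetry was in the members with close summits: the right edge lay 71 bp from the right summit at 199 to 204 bp and 185 bp from it at 300 bp or more.

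The left summit was the stronger one in 234 of 247 members (94.7%, exact 95% interval 91.2 to 97.2%). The left signal had a median of 432 (121.7 to 647.2) and the right signal a median of 85.8 (9.3 to 419). Nearly the whole difference was in the members with close summits, as the plot of signals by distance shows. Up to 219 bp apart the left summit was higher in 128 of 128 and in 80 of 80 intervals, at 220 to 299 bp in 15 of 16, and at 300 bp or more in 11 of 23. The median of left over right signal was 5.47 in the closest class, 6.78 and 1.78 in the next, and 0.952 in the widest.

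The order did not follow the strand of the left motif. The left summit was higher in 83 of 88 members whose left motif lay on the plus strand and in 81 of 86 with it on the minus strand. It also held outside the members. Among neighbouring summits of separate intervals the left one was higher in 96 of 96 pairs at 199 to 204 bp, in 37 of 38 at 205 to 219 bp and in 24 of 33 at 220 to 299 bp. At 400 to 600 bp it was higher in 120 of 248 (48.4%), at 601 to 1000 bp in 48.7%, and over all separate pairs within 2 kb in 52.0%. The other lists gave 236 of 249 intervals with 2 summits in the optimal list (94.8%), 618 of 634 in the pool I list (97.5%) and 36 of 36 in the pool J list. The part of the peak caller in this order was not tested, since signal tracks were not analysed here.

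**Figure D2:**
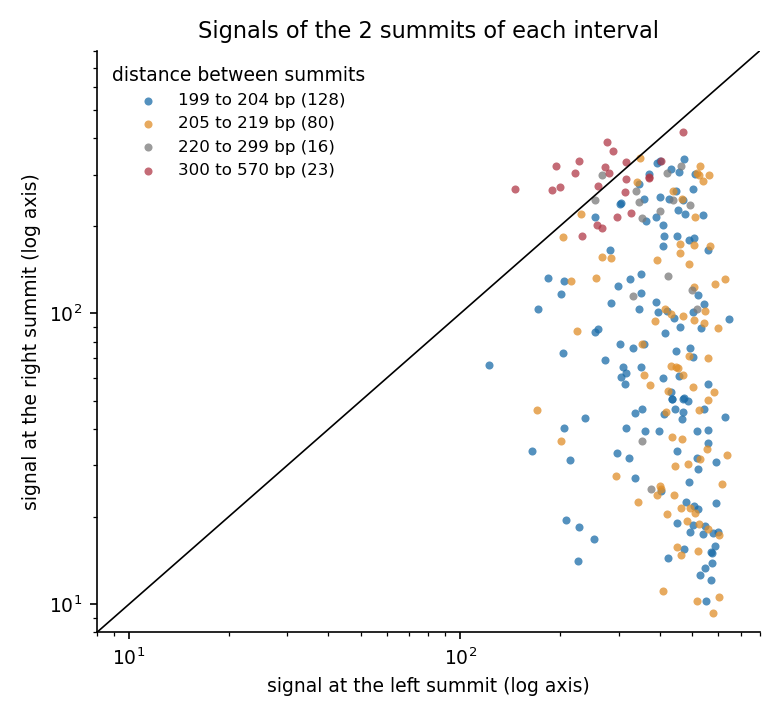
Signal at the right summit (y axis, log scale) against signal at the left summit (x axis, log scale) for each of the 247 member intervals, coloured by the distance between the summits; signal is in the authors' unstated unit. Points on the diagonal have equal signals; all members up to 219 bp apart lie below it, and those at 300 bp or more lie on both sides.

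A CTCF motif was found at most left summits and at a minority of right summits. A match lay near 48.8% of the 494 member summits, where 66.7% is the share over all rows of the list. It was 66.9% for single summits, and 82.8% for those in intervals at least 390 bp wide. At a stricter threshold, which 0.1% of windows away from summits reached, the shares were alike. They were 14.2% of member summits (11.2 to 17.6%) and 13.6% of single summits. The left summit had a match in 174 of 247 members (70.5%, 64.3 to 76.1%) and the right summit in 67 (27.1%, 21.7 to 33.1%). Both summits had one in 55 intervals (22.3%), only the left in 119 (48.2%), only the right in 12 (4.86%) and neither in 61 (24.7%).

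The motif share of the right summit was higher at larger distances. It was 19 of 128 (14.8%) at 199 to 204 bp, 21 of 80 (26.3%) at 205 to 219 bp, 9 of 16 at 220 to 299 bp and 18 of 23 (78.3%) at 300 bp or more. The left summit had 68.0%, 76.3%, 56.3% and 73.9% in these classes. Right summits still had more matches than places without a summit. The point as far to the left of the left summit as the right summit lies to its right had a match in 2 of 247 members (0.810%), and a point 204 bp to the right of single summits in 0.541% of 44178. These 2 measures, and the split by distance, were added after the values had been seen.

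Right motifs lay mostly to the right of their summits in the close classes. The median of their centres was 16 bp right of the summit at 199 to 204 bp (19 matches, quartiles −3 and 30.5 bp). It was also 16 bp at 205 to 219 bp (21 matches), and 38 bp at 220 to 299 bp (9 matches). At 300 bp or more it lay at −3.5 bp (18 matches). Offsets beyond the 50 bp limit of a match are not covered by these values. Left motifs were also shifted outward, with a median of −4 bp from the left summit (quartiles −19 and 5 bp, 174 matches). At single summits the median was 0 bp (quartiles −6 and 6 bp). In the 55 intervals with both summits matched, the 2 motif centres were a median of 268 bp apart (179 to 474 bp). This gap exceeded the summit distance by a median of 23 bp. The plot of motif positions shows these second matches as a low, wide hill right of the mode of the right summits.

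**Figure D3:**
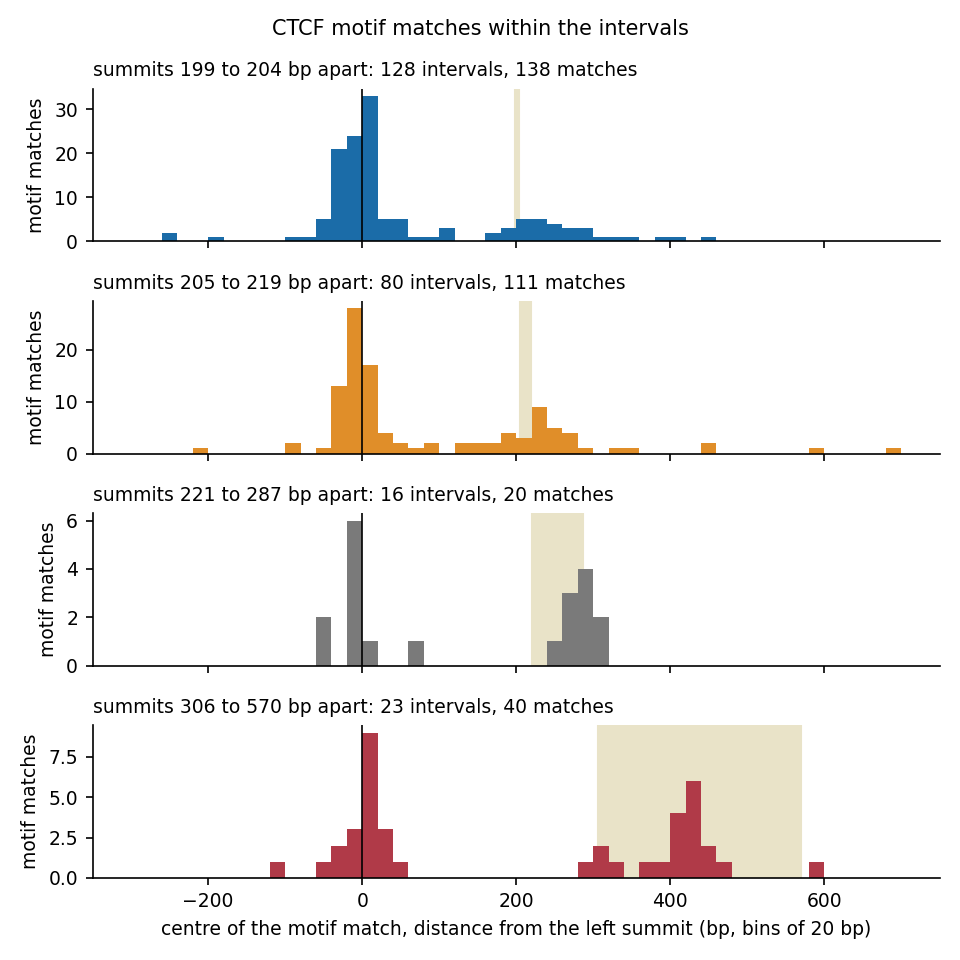
Number of CTCF motif matches in and around member intervals (y axis) by the distance of their centre from the left summit in bp (x axis, bins of 20 bp). Each class of summit distance has 1 panel. Some matches lie beyond the edges of the intervals, so the panels do not give the counts per interval of the text. The black line marks the left summit and the shaded band the range of right summits; matches pile up at the left summit in every panel and within the band of right summits chiefly at 300 bp or more.

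Counted over the whole interval, 79 of 247 members (32.0%, 26.2 to 38.2%) held 2 or more matches. Intervals with 1 summit had 2 or more in 1.28%, and those of them at least 390 bp wide in 5.92%, and the wide ones were stronger than the members (median signal 569). The wide ones had a median width of 411 bp against 520 bp of the members, so the count was not compared at equal width. At least 3 matches were found in 11 members (4.45%) against 0.0362% of intervals with 1 summit. A further 118 members held 1 match and 50 held none.

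The interval with most matches lies in an intron of Sec22c, a gene of transport between endoplasmic reticulum and Golgi. Its 7 matches all lay on the plus strand and followed each other every 45 bp, and 5 of them had the same 20 bases. The left summit had a signal of 524.8 and lay 6 bp from the centre of the second match, and the right summit had a signal of 298 and lay between the sixth and the seventh match. The sequences around the matches at its summits were identical at 65.8% of 120 bases, the highest value of the 55 intervals with 2 matched summits, whose median was 26.7%. The next highest were 45.0% at Peg13 and 39.2% near Kcnk4, a potassium channel gene.

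In the 55 members with a match at both summits, the motifs lay mostly on the same strand. This was so in 33 (60%, 45.9 to 73.0%, an interval that holds an even split), 13 on the plus and 20 on the minus strand. A convergent pair was found in 15 (27.3%, 16.1 to 41.0%) and a divergent pair in 7 (12.7%, 5.27 to 24.5%). Pairs of single summits within 2 kb that both had a match gave 57.2% same strand, 18.3% convergent and 24.5% divergent over 1578 pairs, and those within 600 bp gave 53.5%, 20.2% and 26.4% over 129. The interval of the member share held the neighbour shares for same-strand and convergent pairs. The divergent neighbour shares lay at or above its upper end, while the interval of the 129 close pairs, 19 to 34.8%, overlapped it. At 300 bp or more, 11 members were of the same strand, 5 convergent and 0 divergent.

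**Figure D4:**
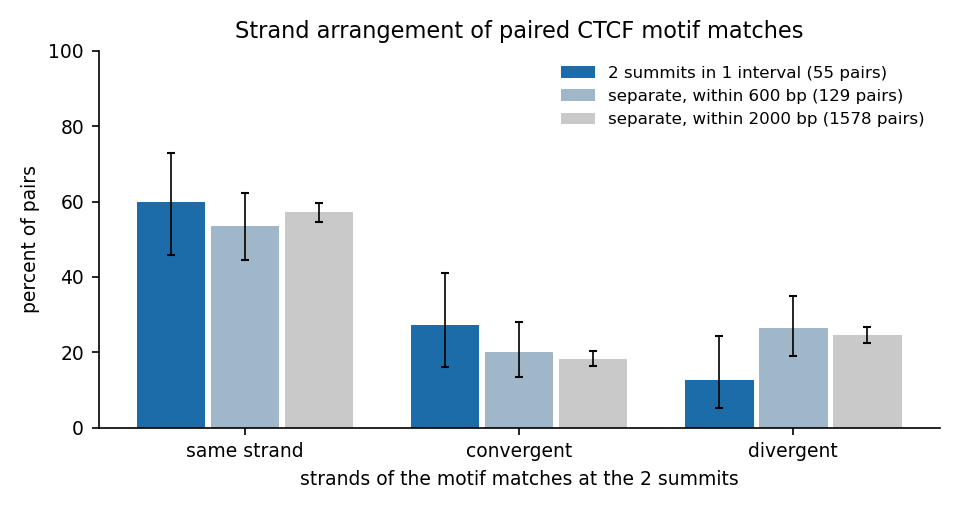
Percent of motif pairs (y axis) by the strands of the 2 matches (x axis) in member intervals (blue) and in pairs of neighbouring separate intervals within 600 bp and within 2000 bp (grey). Bars are shares and error bars exact 95% binomial intervals, which cover the counting of pairs only; the member bar is 60% same strand, 27.3% convergent and 12.7% divergent.

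The strongest same-strand intervals were in Capn2, a calpain protease gene, near Irgm2, an interferon-induced GTPase gene, and in Zbtb46. Their left and right signals were 638.1 and 32.6 for Capn2, 601.5 and 17.3 for Irgm2, and 526.1 and 18.9 for Zbtb46. In all 3 the right summit was thus weak despite its motif, and motif centres lay 179, 181 and 226 bp apart. The strongest convergent intervals had higher right signals, 567.2 and 170.1 near Mrps31, 562.6 and 299.1 at a place far from genes whose nearest is Bud13, and 539.7 and 217.2 in Rslcan18. The strongest divergent ones gave 520.0 and 116.0 near Slc16a11, 510.3 and 215.3 near Ptp4a3, and 474.5 and 220.2 in Slc26a11. The first and the last are solute carrier genes. Over whole classes the stronger summit exceeded the weaker by a median of 1.67 times in the 33 same-strand pairs. The median was 1.88 times in 15 convergent and 2.155 times in 7 divergent pairs. The named intervals thus do not stand for their classes.

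The evenness of the 2 summits differed with their matches. The stronger summit exceeded the weaker by a median of 1.71 times (1.04 to 34.8) with both matched, by 8.53 times with a match at the left only, and by 1.41 times in the 12 members with a match at the right only. Where neither was matched the median was 4.87 times, and over all members it was 4.87 times as well. Matches and evenness both went with summit distance too, since 16 of the 23 members at 300 bp or more had both summits matched. The part of distance in these differences was not tested. The stronger summit had the higher motif score in 188 of 247 members (76.1%, 70.3 to 81.3%), but where both were matched only in 33 of 55 (60%, 45.9 to 73.0%), an interval that holds an even split.

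The pools were compared in the peaks that each had contributed to the members. In pool I the 2 summits of a member came from separate peaks in 219 of 247 (88.7%), in pool J in 163 (66.0%), in both in 148 and in neither in 13. In the remainder both rows drew on the same peak of that pool, with no signal of its own for the second summit. Pool J gave fewer separate pairs up to 219 bp. Its summits were separate in 70 of 128 members at 199 to 204 bp, 56 of 80 at 205 to 219 bp, 15 of 16 at 220 to 299 bp and 22 of 23 at 300 bp or more, while pool I had 110, 73, 14 and 22. Member signals in pool J were also lower, with a median of 154 at left summits on separate peaks against 275 in pool I, and depth cannot be told apart from binding here.

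Where both pools gave separate signals, they gave the same stronger summit in 143 of 148 members (96.6%, 92.3 to 98.9%), the left in 135 and the right in 8. The 5 exceptions were the intervals of Ptf1a, Nlrc5, Haus1, Hist2h2bb and P4ha1. Near Ptf1a pool I had 241.6 at the left and 250.5 at the right summit, and pool J had 218.9 and 167.3. In Nlrc5, a regulator of MHC class I genes, pool I had 148.6 and 216.9 and pool J 145.8 and 141.1.

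The lead of the left summit was larger in pool J. Its log2 of left over right signal had a median of 1.92 in pool J and of 1.24 in pool I, and pool I minus pool J had a median of −0.51 (−2.87 to 1.49). The most different members were near Cyld (−2.87), near Mybl2 (−2.79) and at the promoters of Klf7 (−2.77) and Usf2 (−2.60), and near Gtf3c3 (−2.57). At Usf2, which encodes an E-box binding factor, pool I had 292.1 and 168.5 and pool J had 185.3 and 17.7. Near Cyld, a deubiquitinase gene, pool I had 334.5 and 101.0 and pool J had 217.5 and 8.98. In all 5 the right summit had 17.7 or less in pool J, against a median of 35.5 over the members with separate peaks there. Whether it was bound less in pool J was not tested.

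**Figure D5:**
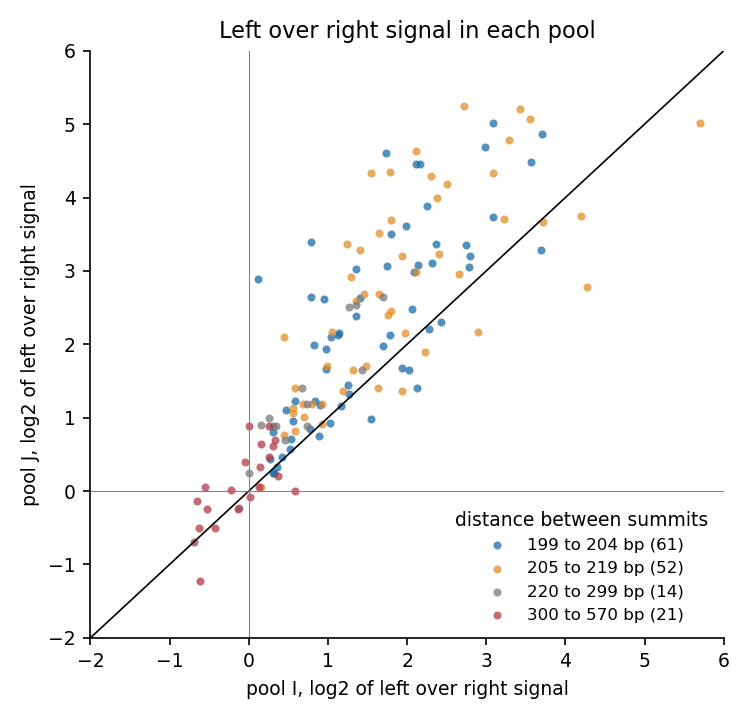
Log2 of left over right signal in pool J (y axis) against that in pool I (x axis) for the 148 member intervals whose summits came from separate peaks in both pools, coloured by summit distance. The diagonal marks equal ratios; most points lie above it, with medians of 1.92 in pool J and 1.24 in pool I, and the members at 300 bp or more lie around 0 in both.

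The lists of the single pools held other intervals with several summits. The pool I list had 640, of which 634 had 2 and 6 had 3 summits, and the pool J list had 36. Those of pool I overlapped 193 members, 78.1% of the members and 30.2% of that list. Those of pool J overlapped 18 members, 7.29% of the members and 50% of that list. In the ranked lists, which keep peaks below the threshold, both summits were found within 50 bp in 217 members for pool I (87.9%) and in 157 for pool J (63.6%).

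Members lay at promoters more often than other intervals. The stronger summit was within 1000 bp of a transcription start in 70 members (28.3%, 22.8 to 34.4%) against 12.1% of intervals with 1 summit and 18.1% of the wide ones. A further 79 were in introns, 86 between genes, 6 in coding exons and 6 in untranslated or noncoding exons. The promoter share differed with the matches. Of the 61 members with neither summit matched 38 were at promoters (62.3%, 49.0 to 74.4%), against 21 of 119 with only the left matched (17.6%), 3 of 12 with only the right matched (25%) and 8 of 55 with both matched (14.5%). The other 32 promoter members thus had a match at a summit.

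Their base composition went along with this. The window of 300 bp lay around the midpoint between the summits in members and around the summit in intervals with 1 summit. Members had a median GC content of 53.3% against 47.0% of single summits. Their ratio of observed to expected CpG dinucleotides was 0.414 against 0.220. The wide intervals with 1 summit lay between, at 51.0% and 0.312. The ratio was 0.590 where neither summit was matched and 0.324 where both were. CpG ratios of at least 0.6 were found in 66 members (26.7%) against 9.66% of single summits and 18.1% of the wide ones. The part of CpG-rich sequence in the promoter share was not tested. Repeats filled at least 50% of the window in 10 members (4.05%), against 15.3% of single summits and 1.19% of the wide ones.

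Among members within 1000 bp of the start of a named protein-coding gene, the strongest were those of Casp2, a caspase gene, and Ints7, which encodes an Integrator subunit. At Casp2 (chr6:42264494-42265030) the left and right signals were 628.0 and 43.97, pool I had 373.0 and 25.2, pool J had 1 peak of 255.6, and the interval held no match. At Ints7 they were 600.0 and 89.3, with 2 matches, of which 1 was at the left summit. They were followed by Letmd1 (587.7 and 126.1), Ccdc59 (556.9 and 165.1), Hdac10, a histone deacetylase gene (539.6 and 17.4), Tab1 (521.6 and 29.3) and Rex1bd (520.1 and 21.3). Socs1, a gene of cytokine signal feedback (516.7 and 103.5), Khk, the fructokinase gene (507.7 and 94.6), and Uckl1 (503.9 and 71.0) completed the 10. None of these 10 had a match at its right summit, and at Casp2, Hdac10 and Tab1 none was found at the left summit either. The Capn2 and Rslcan18 members, counted at promoters through other starts than those of these genes, had a match at both summits.

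The 9 strongest members, by the stronger summit, had signals from 597.7 to 647.2 and were in or nearest to Palm2, Capn2, Poc1a, Casp2, Fgd2, Adap1, Irgm2, Ints7 and Clip2. In 5 of them the second summit had 32.6 or less, among them Adap1 with 604.1 and 10.6 and Clip2 with 597.7 and 17.7. In pool J 7 of the 9 had 1 peak for both summits, the exceptions being Poc1a, a centriole gene, with 275.6 and 28.3, and Fgd2 with 267.2 and 7.01. The 13 members with the stronger right summit were all weaker than these. Examples are the intervals near Runx3 (194.5 and 322.3), near Krt8 (272.4 and 318.9) and near Krt19 (266.7 and 299.8), at distances of 434, 419 and 287 bp.

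Of 41 imprinted genes, which are expressed from 1 parental allele, 5 had a member in the gene or 10 kb upstream (12.2%), against 206 of 21938 protein-coding genes (0.939%). These 5 rest on 3 intervals, since Peg3 shares one with Usp29, and Peg13 one with Trappc9, the gene around it. Imprinted genes also had summits of any kind more often, 37 of 41 against 61.3% of protein-coding genes. No member was found for 56 clustered protocadherin genes, 39 Hox genes or 10 genes of X inactivation or escape from it. The same held for 17 genes of CTCF and cohesin factors and 16 of neuronal activity. Of these 5 lists, 48, 26, 9, 13 and 12 genes had a summit. With a share of 0.939% over protein-coding genes, lists this short can be without a member, so their absence is not read as a result.

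The most even of these 3 members was at the promoter of Peg13, a noncoding RNA gene whose imprinted promoter is known to bind CTCF on 1 allele. At chr15:72809940-72810543 the left and right signals were 230.8 and 219.1 at 212 bp distance, and each pool had a single peak for both, of 168.8 in pool I and 63.8 in pool J. Both summits had a match on the minus strand, with centres 284 bp apart, 36 bp left of the left summit and 36 bp right of the right one. The matches are shown read along the minus strand, since both hold a CpG, the base pair step that DNA methylation marks at imprinted sites.

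Peg13 left match, chr15:72810083-72810102: CTACCCGGTAGAGGGCGCCG

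Peg13 right match, chr15:72810367-72810386: TTACCCGCTAGATGGCACCA

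The H19 member lay 3676 bp from the transcription start of H19, a noncoding RNA gene whose upstream control region is the textbook case of CTCF binding on the unmethylated allele. At chr7:142581668-142582170 the signals were 205.9 and 129.6 at 199 bp distance, with 155.4 and 76.8 in pool I and 50.9 and 26.7 in pool J. No match was found in the interval at this threshold (highest scores 3.6 and 7.4 at the summits, threshold 11.37), and 2 further summits of the list lay within 2 kb, the nearest 1039 bp to the left. The Peg3 member (chr7:6727177-6727867), in an intron of that zinc finger gene, had 302.8 and 78.4 at 202 bp distance, with 200.3 and 37.2 in pool I and 105.0 and 21.2 in pool J. Its 2 matches lay 61 bp left of the left summit and 92 bp right of the right summit, outside the 50 bp limit on both sides. In all 3 the left summit was the higher one, and in H19 and Peg3 both pools gave that order.

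Members were spread over all chromosomes but Y, with 25 on chromosome 7 and 23 on chromosome 2 as the most and 3 on X. As a share of the intervals of a chromosome they ranged from 0.197% on chromosome 6 to 0.879% on chromosome 15. Nearly all member rows, 492 of 494, had the top reproducibility score of 1000, against 93.9% of single summits. The score does not measure the second summit alone, since only 163 of 247 members had separate pool J peaks. The right summit of Adap1, with a signal of 10.6 and no pool J peak of its own, also had 1000. Just outside the rule were 162 pairs of neighbouring summits whose intervals overlapped without being identical. The pair nearest to the rule differed by 7 bp in its edges, and the left summit was higher in 150 of the 162 (92.6%), much as in the members.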

How the data were processed

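The authors deposited peak lists on mm10, 4 thresholded by irreproducible discovery rate (IDR) and 4 ranked. Per the deposited notes the conservative list came from both pools as replicates. The score the authors deposited is a scaled IDR (lowest 540, an IDR of 0.05; top 1000). The signal value deposited by the authors has no stated unit.  Which aligner and peak caller were used is not given in the sources used here. Rows on chromosomes 1 to 19, X and Y entered. The reference was GRCm38.p6 with GENCODE M21 basic annotation. Pool signals came from the ranked list of both pools, which gives the peak of each pool. The motif search and the count of matches were tested on simulated sequence with planted motifs. The rules for intervals, pools and annotation were not part of that test. Intervals of shares are exact binomial (Clopper-Pearson, 95%) and cover counting only; no p-value is given. Tools were SciPy 1.17.1, matplotlib 3.10.9, pandas 2.3.3 and numpy 2.4.6 under Python 3.11.15.

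Intervals were named by rule: the 10 strongest (1 is not reported here), the 3 strongest per strand arrangement, the widest, narrowest, most pool-dependent and most self-similar, 10 at protein-coding promoters, and those of the gene lists; the examples with a stronger right summit, the 5 members whose pools differed in order and the sequence of the interval with most matches were chosen after their values were seen. A gene is one with a start within 1000 bp, else the gene around a summit, else the nearest. Members and lists were chosen with earlier results of these data known.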

Additional observations from a re-analysis of the deposited data

How the results depend on the processing

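Of 51 alternatives 25 stayed within the interval of the value given, or within 1.5 times for counts, and 26 moved. The number of intervals with several summits was 640 in the pool I list and 36 in the pool J list against 247, and 406 when overlap of 1 bp counted. With matches within 20 bp, within 100 bp and at the threshold of 0.1%, member summits had a match in 31.6%, 53.9% and 14.2% (48.8% as given), left summits in 49.4%, 73.7% and 23.1%, and right summits in 13.8%, 34.0% and 5.26%; the left share was above the right share in each. At 0.1% single summits had 13.6%, within the interval of the member share (11.2 to 17.6%). The lower share of member summits than in the list was thus seen at 1% and not at 0.1%. For 20 bp and 100 bp no share of the list was set beside it. Intervals with 2 or more matches were 2.02% at 0.1% and 22.3% within 50 bp of a summit, and single-summit intervals had 5.92% instead of 1.28% when wide. The divergent share was 0% both at 0.1% (3 intervals) and within 20 bp (13 intervals). The stronger summit had the higher motif score in 69.9% by pool J signal and in 60% where both were matched. The pools gave the same stronger summit in 100% (114 of 114) where signals differed by 1.5 times. Both summits were found again within 20 bp in 78.1% (pool I) and 49.4% (pool J), and in 47.0% in the thresholded pool J list. Promoter members were 42.9% at 5000 bp. The left summit was higher in 97.5% in the pool I list and in 100% in the pool J list. The causes were not tested. The alternatives for left and right summits apart and for the left lead in other lists were added after seeing the data. No paired analysis was possible because the libraries of a pool are merged and no groups are compared. Unknown depth, 2 pools and an unstated signal unit limit all values.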
